A study of Homo sapiens with 13 samples.

Results

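MSI2, FGFBP1, TMEM100 and RELB were followed here as 4 of the genes whose RNA was higher after knockdown of WIZ in HEK293T cells, a line derived from human embryonic kidney that expresses the SV40 large T antigen. They were chosen by their log2 ratios in the WIZ siRNA comparison itself, and probes were then taken by gene symbol, so their WIZ siRNA values are a description and were not tested. They are 4 of the 21775 genes with a symbol on the array and are read by 5 of its 42405 probes, with 2 probes for MSI2 and 1 for each of the other genes. The study comprised 13 Agilent Human 8x60K arrays of total RNA, each holding a treated and a control RNA labelled with opposite dyes, Cy3 and Cy5. WIZ siRNA was compared with control siRNA for 72 h in 2 biological replicates, both hybridised in both dye orientations. G9a siRNA was compared with control siRNA for 72 h in 2 replicates, and 1 µM UNC0638 was compared with DMSO for 48 h in 5 replicates. Replicates 1 and 2 of UNC0638 were hybridised in both orientations, whereas UNC0638 replicates 3 to 5 and both G9a siRNA replicates were hybridised once, with the treated RNA in Cy5. DharmaFECT 4, a lipid reagent, carried the siRNAs into the cells, and the labels give neither their sequences nor whether WIZ and G9a siRNA arrays used a common control RNA.

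G9a (gene EHMT2) and its partner GLP place methyl groups on lysine 9 of histone H3, a mark of silenced chromatin. WIZ is a zinc finger protein that binds both enzymes and helps to hold them on chromatin. UNC0638 blocks their catalytic site and leaves the proteins in place, whereas an siRNA lowers the messenger RNA of its target. The 4 genes work in different places in the cell. FGFBP1 is a secreted carrier that frees fibroblast growth factors from the extracellular matrix, and TMEM100 is a membrane protein that lies downstream of the BMP receptor ALK1 in mouse endothelium. RELB is the NF-kappaB subunit of the non-canonical pathway, in which it pairs with the NFKB2 product p52, and MSI2 is an RNA-binding protein that controls the translation of stem cell transcripts.

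The ends of the probes are shown because the position of a probe along its transcript sets which transcripts it can read. The last 30 bases of each probe are given 5′ to 3′, with the letters of the polyadenylation signal AATAAA in capitals where present.
RELB: ttcagagtcttcccAATAAAgatgagtttt
FGFBP1: gttcagaggctgtttcctgcagcatgtatt
TMEM100: aacactttgggggtcatgggagtgcacagc
MSI2, end probe: atctcatcatctcacgaatctgctgtaata
MSI2, inner probe: acccgcacgcttccatttgatgcatttgat
In the coordinates of the array files, human build 37.1, the RELB probe lay at chr19:45541385-45541444 on the plus strand, 8 bases before the 3′ end of the gene. It was the one of the 5 whose last bases held AATAAA, which was found, on the probe strand alone, in 3.09% of the 18553 probes with a sequence in the files. The FGFBP1 probe lay at chr4:15937332-15937391 on the minus strand, 137 bases before the gene's 3′ end, and the TMEM100 probe at chr17:53797759-53797818 on the minus strand, 769 bases before it. The MSI2 probe called the end probe here lay at chr17:55757022-55757081 on the plus strand, 218 bases before the gene's 3′ end. The MSI2 inner probe lay at chr17:55710117-55710176, 47123 bases before that end, and the array files describe it as reading transcript variant 2, a shorter form. The files do not state exon or UTR boundaries for these probes.

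The start-site windows of FGFBP1 and MSI2 are shown because G9a and WIZ act on chromatin and these windows differ in CpG dinucleotides, which are in capitals. Each holds the 250 bases upstream of an annotated start in RefSeq on build GRCh38.p14, written 5′ to 3′ in the direction of the gene.
FGFBP1, chr4:15938741-15938990, minus strand: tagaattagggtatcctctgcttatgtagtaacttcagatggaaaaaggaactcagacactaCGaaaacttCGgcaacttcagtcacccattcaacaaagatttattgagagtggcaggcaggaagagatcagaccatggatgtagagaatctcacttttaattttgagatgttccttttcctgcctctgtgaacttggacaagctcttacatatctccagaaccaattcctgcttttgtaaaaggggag
MSI2, chr17:57255601-57255850, plus strand: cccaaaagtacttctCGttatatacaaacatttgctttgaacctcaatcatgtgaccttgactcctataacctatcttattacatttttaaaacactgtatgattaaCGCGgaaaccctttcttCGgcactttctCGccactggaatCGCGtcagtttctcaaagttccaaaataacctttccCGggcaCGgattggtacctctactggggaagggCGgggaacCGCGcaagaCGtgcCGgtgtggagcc
The FGFBP1 window held 2 CpG dinucleotides and this MSI2 window 14, against a median of 11 over 35116 such windows. A second annotated MSI2 start, with its window at chr17:57256769-57257018, had 31. The letters TGANTCA, a core of AP-1 sites, were searched on both strands and were in none of the 3 windows, against 6.57% of all windows.

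The targeted genes were measured first. WIZ was at log2 ratios of -2.33 and -2.20 in replicate 1 of WIZ siRNA and -2.01 and -1.93 in replicate 2, and fell to 23.1% of its level in control siRNA (log2 ratio -2.12, SE 0.18, limma adjusted p = 0.0014 after Benjamini-Hochberg). EHMT2 was at -1.67 and -1.65 in the G9a siRNA replicates and fell to 31.6% of control siRNA (log2 ratio -1.66, SE 0.13, limma adjusted p = 0.00233). Neither G9a siRNA replicate had a dye swap, so this depth is not free of dye. After subtraction of the dye effect seen in the swapped pairs, EHMT2 was at -1.37 with G9a siRNA (limma adjusted p = 0.0045). The arrays fell into a set of 8 (all WIZ siRNA arrays and UNC0638 replicates 1 and 2) and a set of 5 (UNC0638 replicates 3 to 5 and G9a siRNA) by the pixel SD of the Cy3 background. WIZ siRNA and G9a siRNA lay in 1 set each and UNC0638 in both, so a set term rests on UNC0638 alone. With the set as a block, WIZ was at -2.18 with WIZ siRNA (limma adjusted p = 0.0104) and EHMT2 at -1.54 with G9a siRNA (0.0184). After both orientations were turned to treated over control, the arrays of WIZ siRNA replicates 1 and 2 correlated at -0.483 and -0.356 with their own dye swaps over all features, against 0.0413 and 0.0389 for UNC0638. Dye therefore moved with single-array values, and dye swaps were averaged before any test. All 6 HEK293 lineage markers were above background in the control RNA on every array. The same held for 1 of 10 endothelial, 2 of 10 squamous keratinocyte and 3 of 10 lymphoid and dendritic markers, and the endothelial gene TEK was above it on none. The probes of the 4 genes were above background in both RNAs on 13 of 13 arrays.

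With WIZ siRNA, 176 of 28564 features tested (0.616%) were called at an adjusted p under 0.05, 22 of them (0.077%) higher and 154 (0.539%) lower. The higher calls depended on the processing, with 0 where background was subtracted or the authors' log2 ratio was used, 8 under median centring, 9 without background correction, 6 with the array set as a block and 4 with a replicate block. A feature was the brightest probe of a gene, or a probe with no gene symbol. The 4 genes were picked from these 22, so nothing is read from their own calls there. The lowest of the 22 was NRG4, an ERBB4 ligand, at a mean log2 ratio of 0.42. TBX18, at 0.53, lay just inside the threshold and MSH4, at 0.43, just outside it. In size alone, 0.147% of features had a mean log2 ratio above that of RELB, the lowest of the 4 genes, and the median of all features was 0.01. Each of the 4 genes was higher in the treated RNA on all 4 WIZ siRNA arrays, as were 7.82% of all features.

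FGFBP1, the secreted growth factor carrier, was higher with all 3 treatments. Its log2 ratios with WIZ siRNA were 0.51 and 1.18 in replicate 1, with the treated RNA in Cy3 and in Cy5, and 0.18 and 0.69 in replicate 2. The mean was 0.64 ± 0.29 (SD, n = 2 replicates), a 1.56-fold higher level than with control siRNA. Both replicates were above 0, and in both the Cy5 array gave more than the Cy3 array. With UNC0638 its 5 replicates were at 0.98, 1.11, 1.01, 0.82 and 0.85. FGFBP1 rose 1.94-fold over DMSO (log2 ratio 0.95, SE 0.068, limma adjusted p = 0.000164 after Benjamini-Hochberg) and was higher in 5 of 5 replicates. UNC0638 called 1045 features (3.66%), 498 (1.74%) higher and 547 (1.91%) lower, and FGFBP1 was the only one of the 4 genes among those higher, at place 38 by size over all features. The UNC0638 replicates of both array sets lay side by side, at 0.98 and 1.11 in the set of 8 arrays and between 0.82 and 1.01 in the set of 5.

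G9a siRNA gave FGFBP1 log2 ratios of 0.92 and 0.87. FGFBP1 rose 1.86-fold over control siRNA (log2 ratio 0.90, SE 0.11, limma adjusted p = 0.00283 after Benjamini-Hochberg). Both arrays had the treated RNA in Cy5. With the dye effect of the swapped pairs subtracted, FGFBP1 was at 0.72 with G9a siRNA (limma adjusted p = 0.00677) and 0.85 with UNC0638 (0.000633). Median centring in place of loess gave 0.67 with G9a siRNA (limma adjusted p = 0.00352). G9a siRNA called 9597 features (33.6%), 4331 (15.2%) higher and 5266 (18.4%) lower, and by size FGFBP1 was at place 533 among all features. Without G9a siRNA replicate 2, limma called no feature and the FGFBP1 adjusted p was 0.105 at a log2 ratio of 0.92, with the lone replicate assumed to vary like the other groups. G9a siRNA minus UNC0638 gave -0.06 for FGFBP1 (95% interval -0.34 to 0.23, limma adjusted p = 0.81), and 12.9% of features were called in this contrast, whose times and dye balance also differ. With the array set as a block, FGFBP1 was at 0.97 with UNC0638 (limma adjusted p = 0.00028) and 0.97 with G9a siRNA (0.0184). Features called higher with both UNC0638 and G9a siRNA numbered 181, or 36.3% of those higher with UNC0638 and 4.18% of those higher with G9a siRNA, and FGFBP1 was among them.

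**Figure D1:**
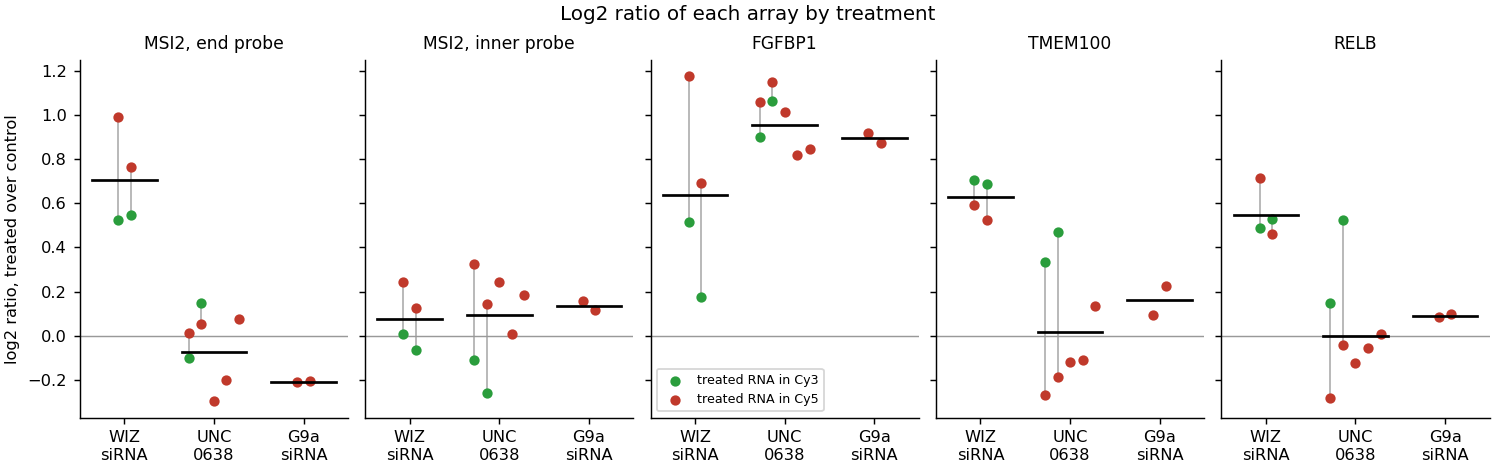
Log2 ratio of treated over control RNA (vertical axis) on each of 13 arrays, by treatment, for the 5 probes. Green and red points have the treated RNA in Cy3 and Cy5, grey lines join the dye swaps of a replicate, and black bars are means over replicates. FGFBP1 was above 0 on all 13 arrays. TMEM100, RELB and the MSI2 end probe lay above 0.4 on all 4 WIZ siRNA arrays and on both sides of 0 with UNC0638. On UNC0638 arrays with the treated RNA in Cy3, RELB reached 0.52 and TMEM100 0.47.

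TMEM100, the membrane protein of the ALK1 pathway, had the closest WIZ siRNA replicates of the 4 genes. Its log2 ratios were 0.71 and 0.59 in replicate 1, with the treated RNA in Cy3 and in Cy5, and 0.69 and 0.53 in replicate 2, a mean of 0.63 ± 0.03 (SD, n = 2) or 1.54-fold. The 4 arrays lay between 0.53 and 0.71, with both Cy3 arrays above both Cy5 arrays. With UNC0638 the replicates were at 0.03, 0.14, -0.12, -0.11 and 0.13. The mean of 0.01 did not pass the test (95% interval -0.11 to 0.14, limma adjusted p = 0.9), and the replicates lay on both sides of 0. In replicates 1 and 2 of UNC0638 the sign went with orientation, at 0.34 and 0.47 where Cy3 marked the UNC0638 RNA, and -0.27 and -0.19 where Cy5 did. With the Cy3 arrays alone the UNC0638 mean was 0.40 (limma adjusted p = 0.0203), and the part of the dye in it was not tested. G9a siRNA gave TMEM100 0.10 and 0.22, a mean of 0.16 that did not pass the test (95% interval -0.04 to 0.36, limma adjusted p = 0.195). Both of those arrays had the treated RNA in Cy5. With the dye effect of the swapped pairs subtracted the G9a siRNA mean was 0.35 (limma adjusted p = 0.0164). That effect was -0.07 in the WIZ siRNA pairs and -0.32 in the UNC0638 pairs, and was not measured on G9a siRNA arrays.

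RELB, the non-canonical NF-kappaB subunit, gave WIZ siRNA log2 ratios of 0.49 and 0.72 in replicate 1, with the treated RNA in Cy3 and in Cy5, and 0.53 and 0.46 in replicate 2. The mean was 0.55 ± 0.075 (SD, n = 2), or 1.46-fold, and the 4 arrays did not separate by dye. With UNC0638 the replicates of RELB were at -0.07, 0.24, -0.12, -0.06 and 0.01, on both sides of 0. The UNC0638 mean of 0.00 did not pass the test (95% interval -0.13 to 0.13, limma adjusted p = 0.996). As for TMEM100, the Cy3 arrays of UNC0638 replicates 1 and 2 gave positive ratios, 0.15 and 0.52, and the Cy5 arrays gave -0.28 and -0.04. With G9a siRNA RELB was at 0.09 and 0.10, a mean of 0.09 that did not pass the test (95% interval -0.11 to 0.30, limma adjusted p = 0.489).

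MSI2, the RNA-binding protein, gave different values at its 2 probes. The end probe had WIZ siRNA log2 ratios of 0.53 and 0.99 in replicate 1, with the treated RNA in Cy3 and in Cy5, and 0.55 and 0.77 in replicate 2, a mean of 0.71 ± 0.07 (SD, n = 2) or 1.63-fold. The inner probe, which reads the shorter transcript variant, was at 0.01 and 0.24 in replicate 1 and -0.06 and 0.13 in replicate 2, a mean of 0.08 ± 0.065 (SD, n = 2). On each WIZ siRNA array the end probe was higher than the inner probe, and the 2 sets of values did not overlap. The end probe stands for the gene because it was the brighter over all 13 arrays, at a mean log2 brightness of 12 against 11.61. In the WIZ siRNA comparison alone, the end probe was at 12 with WIZ siRNA and 11.29 with control siRNA. The inner probe was at 11.98 and 11.91 there, so it was the brighter in control siRNA. The choice of probe decides the WIZ siRNA value. Which transcripts each probe reads in these cells was not tested.

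With UNC0638 the MSI2 end probe was at -0.04, 0.10, -0.30, -0.20 and 0.08 over the 5 replicates, a mean of -0.07 that did not pass the test (95% interval -0.22 to 0.07, limma adjusted p = 0.545). The inner probe was at 0.11, -0.06, 0.24, 0.01 and 0.18 in the same replicates. With G9a siRNA the end probe was at -0.21 and -0.21 (mean -0.21, 95% interval -0.44 to 0.02, limma adjusted p = 0.146), and the inner probe at 0.15 and 0.12. Both G9a siRNA replicates thus had the end probe below 0 and the inner probe above it, the reverse of their order with WIZ siRNA. In UNC0638 replicates 1 and 2 the inner probe's sign went with orientation, at -0.11 and -0.26 in Cy3 and 0.32 and 0.14 in Cy5. Both G9a siRNA arrays had the treated RNA in Cy5, and the part of the dye in this order was not tested. Where each array was centred on its median instead of by loess, the end probe was called lower with G9a siRNA, at -0.36 (limma adjusted p = 0.0314). Between G9a siRNA and UNC0638, MSI2, TMEM100 and RELB differed by -0.14 (95% interval -0.41 to 0.14), 0.14 (-0.09 to 0.38) and 0.09 (-0.15 to 0.34), none past the test. In all, 3 of the 4 genes were above 0 on both G9a siRNA arrays, as were 37.2% of all features, and 1 of 4 on all UNC0638 arrays, as were 3.12%.

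The level of each RNA was taken as log2 brightness. The mean brightness of the 2 channels was quantile normalized across arrays, and each array's ratio was kept. Levels are compared here within the set of 8 arrays, and which RNA of a ratio changed was not tested. For the MSI2 end probe the replicates were at 11.95 and 12.04 with WIZ siRNA and 11.28 and 11.30 with control siRNA, and the means were 11.72 with UNC0638 and 11.69 with DMSO. WIZ siRNA was thus the highest of the 4 RNAs and control siRNA the lowest, while the UNC0638 and DMSO replicates overlapped between them. TMEM100 had the same order, at 9.55 with WIZ siRNA and 8.92 with control siRNA, and 9.26 with UNC0638 and 9.18 with DMSO. RELB was at 11.36 with WIZ siRNA and 10.81 with control siRNA, and at 11.04 with UNC0638 and 10.95 with DMSO, with UNC0638 and DMSO again overlapping. For these 3 genes the control siRNA level also lay below that of DMSO, and transfection and time differed between the 2 controls.

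FGFBP1 ordered differently in those arrays. It was at 10.56 with WIZ siRNA and 9.92 with control siRNA, and at 10.18 with UNC0638 and 9.13 with DMSO. The WIZ siRNA replicates (10.4 and 10.71) overlapped those of UNC0638 (9.88 and 10.48), which in turn overlapped control siRNA (9.87 and 9.96). DMSO, at 8.89 and 9.37, was lowest. In bulk RNA, more cells of a type and more RNA per cell cannot be told apart.

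**Figure D2:**
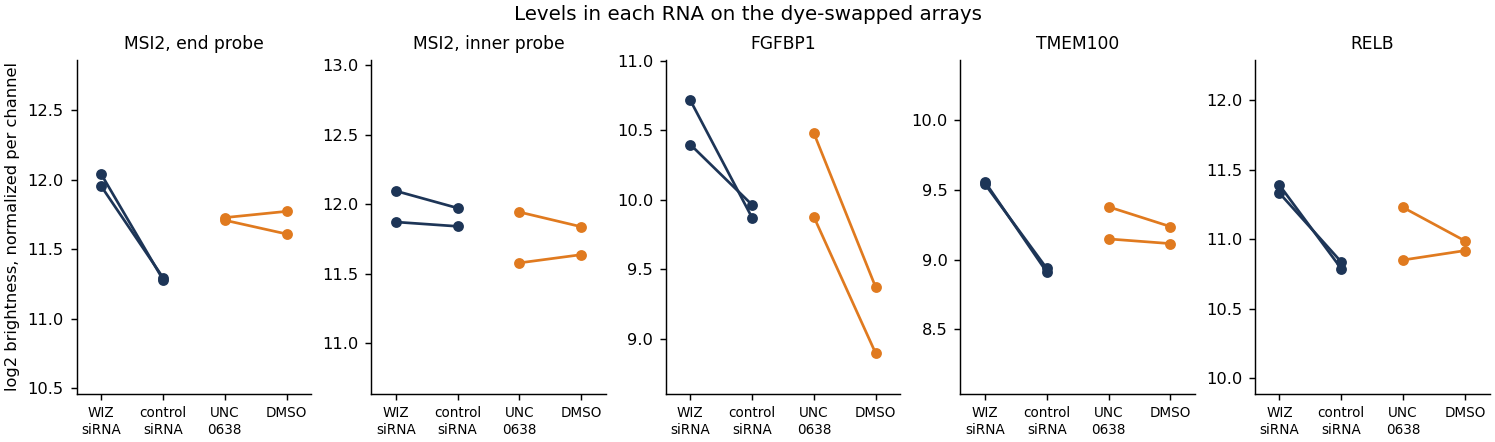
Log2 brightness after quantile normalization (vertical axis, all panels of equal height in log2 units) in each RNA of the 8 dye-swapped arrays, for the 5 probes. Points are replicates averaged over both dye orientations, and lines join a treated RNA to its own control. WIZ siRNA lay above control siRNA in both replicates at each probe, by a mean of 0.08 at the MSI2 inner probe and 0.55 to 0.71 at the others.

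In the set of 5 arrays the levels ordered by gene in other ways. FGFBP1 was at 9.71 with UNC0638 and 8.81 with DMSO, and at 9.69 with G9a siRNA and 8.79 with control siRNA, and every treated replicate there was above every control replicate. The MSI2 end probe was at 12.41 with UNC0638 and 12.55 with DMSO, and at 12.38 with G9a siRNA and 12.59 with control siRNA. The G9a siRNA and control siRNA levels of MSI2 did not overlap, whereas those of UNC0638 and DMSO did. RELB was at 12.76 with G9a siRNA and 12.67 with control siRNA, both above the 12.11 with UNC0638 and 12.17 with DMSO, and the UNC0638 and DMSO levels overlapped. TMEM100 lay between 9.31 and 9.96 in all 4 RNAs of this set, and all of them overlapped.

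The dye effect of each probe was taken as Cy5 over Cy3 in the swapped pairs. In the WIZ siRNA pairs it was 0.04 for RELB, -0.07 for TMEM100, 0.29 for FGFBP1, and 0.17 and 0.11 for the MSI2 end and inner probes. The median size over all features was 0.142. The FGFBP1 and MSI2 end probe effects were larger than that median and those of TMEM100, RELB and the MSI2 inner probe smaller. In the UNC0638 pairs the dye effect was -0.25 for RELB, -0.32 for TMEM100, 0.06 for FGFBP1, and 0.00 and 0.21 for the MSI2 end and inner probes. The median size there was 0.0935. The dye effect of a probe thus differed between the WIZ siRNA and the UNC0638 pairs. It was not measured on G9a siRNA arrays, where the mean effect of these pairs was subtracted. The authors' deposited log2 ratios, turned to treated over control, gave FGFBP1 0.50, 1.25, 0.17 and 0.73 on the 4 WIZ siRNA arrays in the order used above. For TMEM100 the authors' deposited log2 ratios were 0.74, 0.67, 0.73 and 0.59, and for RELB 0.46, 0.75, 0.53 and 0.48. For the MSI2 end probe they were 0.48, 1.02, 0.54 and 0.79, and for the inner probe -0.04, 0.26, -0.08 and 0.13. The authors' deposited table of log10 ratios held a value for FGFBP1 on 1 of the 4 WIZ siRNA arrays and for the MSI2 end probe on 3.

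**Figure D3:**
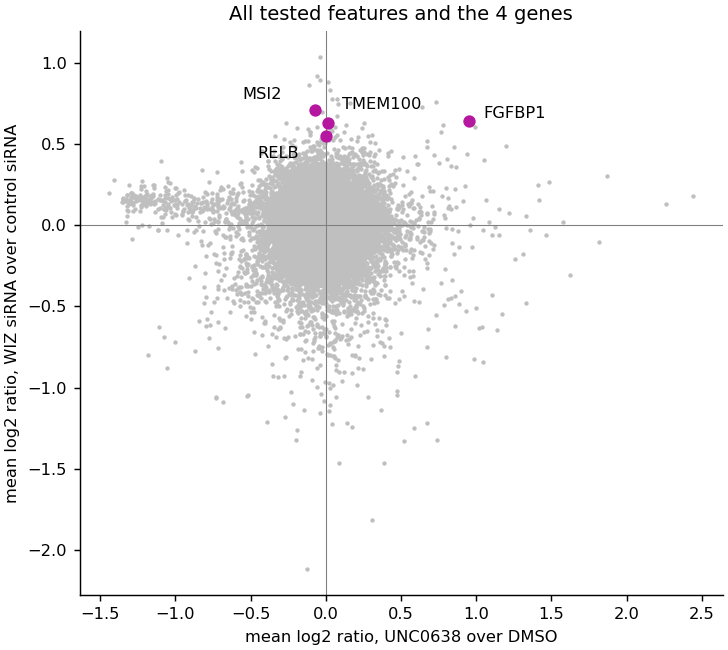
Mean log2 ratio with WIZ siRNA (vertical axis) against that with UNC0638 (horizontal axis) for 28564 features, with the 4 genes in colour. FGFBP1 lies at 0.64 and 0.95, and MSI2, TMEM100 and RELB lie between 0.55 and 0.71 on the vertical axis and between -0.07 and 0.01 on the horizontal one.

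By the root mean square difference of log2 ratios over the 9 replicates, RELB and TMEM100 were each other's nearest named feature, at 0.088. USP31, a ubiquitin protease, was next for both, at 0.12 from TMEM100 and 0.122 from RELB, followed by LRMDA for TMEM100 and HOXB6 for RELB. Among the features nearest to MSI2 were PAIP2B, at 0.155, and TMEM138, at 0.163. PAIP2B, a regulator of poly(A)-binding protein, was at 0.46 with WIZ siRNA, -0.10 with UNC0638 and -0.07 with G9a siRNA. FGFBP1 had no feature so near: SLC40A1, an iron exporter, was at 0.295, ANXA1 at 0.302 and BEX5 at 0.316. ANXA1, a phospholipid-binding protein, was at 0.72 with WIZ siRNA, 0.64 with UNC0638 and 0.79 with G9a siRNA. These distances include the WIZ siRNA values by which the genes were chosen. With WIZ siRNA, 67 features had a mean log2 ratio of 0.5 or more, so the choice favours neighbours among such features. The nearness, that of RELB and TMEM100 included, is therefore a description and was not tested.

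Of 38 other genes of FGF binding, signalling and feedback, none passed the test with WIZ siRNA, and the median log2 ratio was 0.00 against 0.01 over all features. The other binding proteins were at -0.04 (FGFBP2) and 0.00 (FGFBP3), and the ligand FGF2, which FGFBP1 carries, was at 0.08. EGR1, an immediate early factor, was at 0.57 and 0.66, as large as the 4 genes, and did not pass the test (mean 0.61, SE 0.22, limma adjusted p = 0.448). With UNC0638, 2 of the 38 rose and 1 fell (over all features 1.74% were called higher and 1.91% lower). EGR1 rose by a log2 ratio of 0.78 (limma adjusted p = 0.0162) and the co-receptor GPC3 by 0.31 (0.00618), and the co-receptor SDC1 was at -0.32 (0.00917). FGF2 was at 0.23 (limma adjusted p = 0.282). With G9a siRNA, 8 of the 38 rose and 9 fell (over all features 15.2% were called higher and 18.4% lower), with a median of -0.01 against -0.01 over all features. FGF2 rose by 1.42 and FGF7, a keratinocyte growth factor, by 1.60, both at a limma adjusted p of 0.00283. Among the 9 that fell, FGFRL1 was at -0.95 (limma adjusted p = 0.00326).

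Of 32 other genes of BMP and ALK1 signalling tested, 1 passed with WIZ siRNA (over all features 0.616% were called). ACVRL1, the gene of ALK1 itself, fell in both replicates, at -0.50 and -0.45 (mean -0.48, SE 0.073, limma adjusted p = 0.026), while TMEM100 was higher on the same arrays. ENG, the ALK1 co-receptor, was at 0.01. The type 2 receptor BMPR2 was at -0.77 and -0.88, a larger size than ACVRL1, and did not pass the test (mean -0.82, limma adjusted p = 0.0566). NOG, a BMP antagonist, was at -0.70 (0.278) and the target ID1 at -0.48 (0.12), both named after their values were seen. With UNC0638, ACVRL1 was at -0.18 (limma adjusted p = 0.0715), below 0 in 5 of 5 replicates. The decoy receptor BAMBI, at -0.35 (limma adjusted p = 0.0363), was the only one of the 32 called with UNC0638, against 3.66% of all features. With G9a siRNA, 8 of the 32 rose and 8 fell, against 15.2% of all features called higher and 18.4% lower. The median was 0.07 against -0.01 over all features, and the receptor BMPR2 (1.15) and the ligand BMP2 (1.04) rose. Among the 8 that fell, ID3 was at -1.01 (limma adjusted p = 0.0044).

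Of 28 other NF-kappaB subunits, inhibitors, kinases and adaptors, none passed with WIZ siRNA. The median was 0.09 against 0.01 over all features. NFKB2, whose product pairs with RELB, was at 0.33 and 0.23 (mean 0.28, limma adjusted p = 0.563), RELA at 0.26 (0.717), REL at 0.19 (0.999) and NFKB1 at -0.16 (0.621). RELB itself, at 0.55, was chosen for that value, and the difference between the subunits was not tested. With UNC0638, 2 of the 28 rose (over all features 1.74% were called higher), namely BIRC3 at 0.41 and MAP3K14, the kinase NIK, at 0.32. With G9a siRNA, 8 of the 28 rose and 12 fell (over all features 15.2% were called higher and 18.4% lower), and the median was -0.09 against -0.01. The lower calls held 3 subunits, with RELA at -0.98 (limma adjusted p = 0.00286), NFKB1 at -0.38 (0.00492) and NFKB2 at -0.36 (0.0401), while RELB was at 0.09.

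Among 20 tested NF-kappaB target genes, a list that shares BIRC3, NFKB2, NFKBIA and TNFAIP3 with the preceding one, none rose and 3 fell with WIZ siRNA. Over all features, 0.077% were called higher and 0.539% lower. PLAU, the urokinase, fell at -0.64 (limma adjusted p = 0.00658), TNFAIP2 at -0.72 (0.0171) and the chemokine CXCL12 at -0.63 (0.0226), while the list's median was 0.04 against 0.01 over all features. With UNC0638, BIRC3 and the chemokine CXCL2 (0.40) rose and none fell (over all features 1.74% were called higher and 1.91% lower). With G9a siRNA, 6 of the 20 rose and 1 fell (over all features 15.2% were called higher and 18.4% lower), with a median of 0.08 against -0.01, and CXCL3 rose by 1.02.

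Of 13 other genes in the Musashi list, a family member and messages reported as its targets, none passed with WIZ siRNA or UNC0638. MSI1, the paralogue of MSI2, was at 0.27 and 0.28 with WIZ siRNA (limma adjusted p = 0.546), and NUMB, a Notch inhibitor, was at -0.03. The median of this list with WIZ siRNA was -0.10 against 0.01 over all features. With G9a siRNA, 7 of the 13 rose and 1 fell (over all features 15.2% were called higher and 18.4% lower), with a median of 0.37 against -0.01, and with BCAT1 at 0.78 and IKZF2 at 0.76 among the higher calls.

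Markers of other cell types in which the 4 genes are known were also measured. Of 6 endothelial markers tested, none passed with WIZ siRNA, and the same was found for 6 squamous and 7 lymphoid and dendritic markers. Summed brightness of the 10 endothelial markers, on the log2 scale, ranged from 10.41 to 10.55 with WIZ siRNA and from 10.41 to 10.55 with control siRNA. Those of the squamous markers ranged from 10.86 to 11 with WIZ siRNA and from 10.99 to 11.16 with control siRNA. Those of the lymphoid and dendritic markers ranged from 13.45 to 14.07 with WIZ siRNA and from 13.5 to 13.85 with control siRNA. In each list the ranges thus met. Most of the 10 markers in each list were not above background on every array. The sums therefore include background, and ranges that meet cannot show that marker levels were equal. VWF (0.53) and SFN (0.32) rose with UNC0638 and CDH5 (0.42) rose with G9a siRNA, all 3 called by limma. Of the 7 lymphoid and dendritic markers tested, 1 rose and 2 fell with G9a siRNA. Among the 6 HEK293 lineage markers, INA fell with WIZ siRNA, at -0.75 (limma adjusted p = 0.0102), and KRT18 fell with G9a siRNA, at -0.50 (0.00693). Over all features, 1.74% were called higher with UNC0638 and 0.539% lower with WIZ siRNA. With G9a siRNA, 15.2% were called higher and 18.4% lower.

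**Figure D4:**
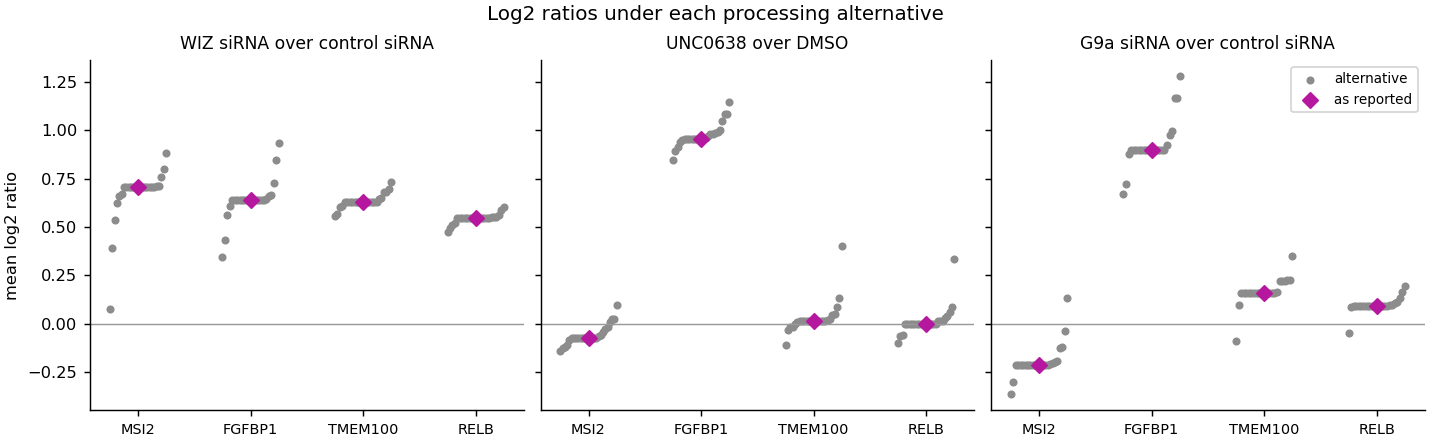
Mean log2 ratio (vertical axis) of the 4 genes in each of the 3 comparisons, as reported (diamond) and under each processing alternative (grey points, sorted by value). With WIZ siRNA every alternative was above 0, from 0.077 for the MSI2 inner probe to 0.934 for FGFBP1 on the Cy5 arrays. The 4 genes were chosen by these values, so that sign is no test. FGFBP1 stayed above 0.6 with UNC0638 and G9a siRNA.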

How the data were processed

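Spot and background intensities were deposited by the authors as mean and median pixel brightness per channel, per the file headers, with the percent of saturated pixels in each spot. Per the file headers, the authors' log2 ratios of the channels came from background-subtracted means, normalized in a way that varies with brightness. The authors' deposited series table holds log10 ratios. Its direction was found by setting each column against that array's own ratio (control over treated on 8 arrays, treated over control on 5). Its column medians ran from -0.01 to 0.00818, and its centring is unknown. For scanner, software and slide, details are not given in the sources used here. While the labels call the replicates biological, they do not say that they came from separate cultures, so p-values measure the spread between these samples. That spread was pooled for each feature over all 9 replicates, 5 of them UNC0638. The p-value of an siRNA with 2 replicates therefore rests largely on the spread between UNC0638 replicates.

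Background was corrected with normexp (offset 50) and ratios were normalized by loess within each array, with the 4259 control spots of 62976 given weight 0 (limma 3.58.1, R 4.3.3). Arrays were turned to treated over control, and dye swaps were averaged to 9 replicates. A probe was kept when its signal exceeded the background median by 2.6 background SDs on at least 50% of arrays of an RNA, which left 34143 probes, and the brightest probe stood for a gene, giving 28564 features, 18578 with a symbol. Treatment means over all 9 replicates were tested with limma's lmFit and eBayes (6 residual and 3.37 prior degrees of freedom) and adjusted by Benjamini-Hochberg over all features. The arrays' median spot brightness was 118 to 249 in Cy3 and 101 to 371 in Cy5, and the number of arrays limits the precision.

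Simulated ratios had 100 changed features of each size among 28564. Log2 changes of 0.5 and 1 were recovered at 30% and 84% for WIZ siRNA and at 64% and 95% for UNC0638. For G9a siRNA the shares were 33% and 83%. The simulated noise was independent, with the same SD of a feature in all treatments and no effect of dye or array set. The recovery in the arrays themselves may therefore differ. Named were the 4 genes, both targets, the nearest relatives in each list, up to 4 others per list and treatment with the largest called change, and the 3 features nearest to each gene, of which 1 is not reported here. The genes and lists were chosen with earlier results of these data known. Start-site windows were available for 2 of the 4 genes, from RefSeq. The array set took the place of the slide as the batch. Background correction, normalization, ratio source, probe filter and rule, dye, array set, samples and replicate block were varied.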

Additional observations from a re-analysis of the deposited data

Results flagged for a closer look

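FGFBP2, a relative of FGFBP1, had 1 UNC0638 replicate far from the other 4. Replicate 3 was at a log2 ratio of -0.111, below 0, whereas the other 4 lay above 0. Such a gap appears by chance in about 1 in 20 groups of this size. That replicate also had the widest spread of log2 ratios over all features among the 5 (SD 0.508, against 0.169 to 0.296 in the others), and the part of this in the FGFBP2 value was not tested.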

How the results depend on the processing

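With WIZ siRNA the 4 genes stayed above 0 under every alternative run: MSI2 from 0.077 to 0.88, FGFBP1 from 0.345 to 0.934, TMEM100 from 0.559 to 0.73 and RELB from 0.475 to 0.601. They were chosen as high on these same arrays, so the sign follows from that choice and is no test of the rise. The lowest MSI2 value came from its inner probe, an alternative chosen after seeing the data, and the mean of both probes gave 0.393. FGFBP1 passed the test with UNC0638 in 25 of 25 alternatives (0.847 to 1.146) and with G9a siRNA in 22 of 23 (0.669 to 1.279), the exception being 0.921 without G9a siRNA replicate 2, within 0.874 to 0.921 over the replicates left out. MSI2 passed with G9a siRNA under median centring (-0.362), TMEM100 with G9a siRNA after subtraction of the dye effect (0.352) and with UNC0638 on Cy3 arrays alone (0.403); the cause was not tested. The knockdown of WIZ gave an adjusted p of 0.0606 with the authors' log10 table, in which FGFBP1 had 1 WIZ siRNA array.

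Counts of features called moved more. For WIZ siRNA, against 176, they were 29 with background subtracted and 30 with the authors' log2 ratio (0 higher in both; 1373 and 1400 features had an unadjusted p under 0.05 in either direction), 60 with the authors' log10 table, 1827 on Cy5 arrays, 10772 on Cy3 arrays, 99 with the array set as a block, 2854 within the set of 8 arrays, 6784 on its own replicates, and 20 to 349 with a replicate left out. For UNC0638, against 1045, the same first 3 gave 520, 542 and 585, Cy5 arrays 2648, Cy3 arrays 2363, the set of 5 arrays 120, its own replicates 430, and a replicate left out 602 to 882. For G9a siRNA, against 9597, they were 4770 with the set as a block and 6057 within the set of 5 arrays. A replicate left out gave 0 to 11024, with 0 calls by limma without G9a siRNA replicate 2, where 7185 features had an unadjusted p under 0.05. Median centring gave 487 higher and 329 lower calls with UNC0638, against 498 and 547, and 2894 and 6594 with G9a siRNA, against 4331 and 5266.

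Replicate numbers were treated as names, since the difference of replicate 1 minus replicate 2 correlated weakly between treatments over all features. The correlation was 0.00455 for WIZ siRNA with UNC0638, -0.0309 for WIZ siRNA with G9a siRNA and 0.106 for UNC0638 with G9a siRNA. A replicate block gave 76 calls for WIZ siRNA, 729 for UNC0638 and 8487 for G9a siRNA, and changed no call of the 4 genes with UNC0638 or G9a siRNA; their WIZ siRNA values were not tested. The planned removal of a trend with GC content was void and not run, because 43.8% of probes had a sequence. Calls of small changes are limited by 2 replicates for each siRNA.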
